A study of Mus musculus with 20 samples.

Results

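The genes described here are 32 genes of protein folding and stress signalling in the endoplasmic reticulum (ER), read across 20 RNA libraries of mouse muscle endothelial cells. They were given as a list of gene names, with no threshold on a measured value. They are 32 of the 42374 genes with summed counts, and 31 of the 13971 genes that passed the filter on low counts. Derl3 did not pass it. By role the list holds 11 chaperones and cochaperones, 5 disulfide isomerases and reductases, 4 sensors and transcription factors, 8 genes of ER-associated degradation and 4 of the translocon and glycosylation.

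Endothelial cells, which line blood vessels, were sorted from C57BL/6N mice by CD31 on their surface and the absence of CD45. Their source was either the oxidative soleus or the glycolytic extensor digitorum longus (EDL). With wild type (WT) mice and mice that lack Atf4 in endothelium (Atf4 ECKO, for endothelial knockout), this gives 4 groups of 5 libraries. All mice, the controls too, received 1 mg tamoxifen a day for 5 days from 8 to 10 weeks of age, and at least 7 days without treatment followed. The controls were littermates without Cre, so Cre and the Atf4 deletion come together. The promoter that drives Cre and the number of animals behind a library are not given in the sources used here. A p-value here thus speaks of the scatter among libraries, part or all of which may be technical.

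The ER folds proteins that enter it through a translocon, adds sugar chains to them, and forms their disulfide bonds with chaperones and oxidoreductases. Proteins that fail to fold are sent back to the cytosol and destroyed. When unfolded proteins build up, 3 membrane sensors respond: IRE1 (gene Ern1) splices the RNA of Xbp1, ATF6 is cut to release a transcription factor, and PERK (Eif2ak3) leads to translation of Atf4. XBP1 and ATF6 raise chaperones, folding enzymes and degradation genes, in part through stress elements in their promoters. Endothelial cells secrete matrix, clotting factors and receptors, and so depend on this machinery.

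Several of these genes share a promoter element. The ER stress response element, CCAAT and CCACG with 9 bases between them, occurs in the RefSeq promoter windows (GRCm38.p6, from 250 bases before to 50 after the start, both strands) of 9 of the 26 members that have a window, against 0.119% of all 32851 windows. The 9 are Calr, Canx, Creld2, Derl3, Dnajc3, Hsp90b1, Hspa5, Pdia6 and Syvn1. The element is shown for the 8 of these genes that were tested, to set beside their RNA levels, with 5 bases on each side and with the CCAAT and CCACG in capitals. Each is read 5′ to 3′ on the strand that carries the element. Hsp90b1 has it on both strands.
Hspa5, chr2:34772020-34772048, plus strand: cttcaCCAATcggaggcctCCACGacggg
Calr, chr8:84847070-84847098, plus strand: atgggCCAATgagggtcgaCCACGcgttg
Hsp90b1, chr10:86705633-86705661, minus strand: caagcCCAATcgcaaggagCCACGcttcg
Hsp90b1, chr10:86705528-86705556, plus strand: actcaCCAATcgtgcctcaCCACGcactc
Canx, chr11:50325795-50325823, minus strand: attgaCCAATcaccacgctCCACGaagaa
Pdia6, chr12:17266486-17266514, plus strand: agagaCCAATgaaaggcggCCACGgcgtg
Dnajc3, chr14:118937822-118937850, plus strand: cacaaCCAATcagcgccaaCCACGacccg
Creld2, chr15:88819515-88819543, minus strand: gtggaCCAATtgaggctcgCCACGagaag
Syvn1, chr19:6046527-6046555, plus strand: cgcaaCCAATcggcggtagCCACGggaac

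The second form of the element, ATTGG and CCACG with 1 base between them, was found in Dnajb11 and Herpud1, against 0.0365% of all windows. The XBP1 and ATF6 core TGACGTG was found in Hspa5 alone among the members, against 2.01% of windows. The core of the C/EBP-ATF response element, to which Atf4 binds, is TGATG and AA with 1 base between them, and Herpud1 alone held it, against 3.97% of windows. None of these matches overlapped another. They describe letters in a window and show neither binding nor its absence. The 2 stretches shown were chosen with the RNA values known, and no link between motif and level was tested. Both genes were higher in WT soleus than in WT EDL and lower in Atf4 ECKO soleus than in WT soleus. In EDL, Hspa5 was lower in Atf4 ECKO and Herpud1 was not called. Dnajb11, not shown, was lower in WT soleus than in WT EDL. Ern1 and Dnajb9 were also higher in WT soleus, and their windows held none of these motifs. In Hspa5 the capitals mark TGACGTG, and in Herpud1 they mark, in order, the response element core on the reverse strand and the second form of the stress element.
Hspa5, chr2:34771840-34771969, plus strand: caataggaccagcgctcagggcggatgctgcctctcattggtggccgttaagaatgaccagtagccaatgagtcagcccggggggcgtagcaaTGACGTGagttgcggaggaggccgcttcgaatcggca
Herpud1, chr8:94386179-94386428, plus strand: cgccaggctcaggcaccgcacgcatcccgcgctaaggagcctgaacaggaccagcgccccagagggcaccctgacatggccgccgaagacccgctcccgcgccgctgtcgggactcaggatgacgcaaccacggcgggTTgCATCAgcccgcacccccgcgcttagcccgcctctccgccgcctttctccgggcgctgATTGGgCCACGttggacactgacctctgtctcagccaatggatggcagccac

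Levels below are CPM, the counts of a gene scaled to a common library total with TMM factors. A member was called higher or lower at an adjusted p below 0.05 in the quasi-likelihood test of edgeR, with Benjamini-Hochberg adjustment over all 13971 genes. Library totals ran from 8013223 to 21720127 counts. Atf4 itself stood at 262 CPM ± 13.5 (SD, n = 5) in WT EDL and 554 CPM ± 21 in WT soleus. It stood at 7.38 CPM ± 0.996 in Atf4 ECKO EDL and 8.29 CPM ± 0.351 in Atf4 ECKO soleus.

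Other features of the libraries moved with the groups. The 8 endothelial markers (Pecam1, Cdh5 and others) summed to between 6132 and 7310 CPM in every library, lowest in Atf4 ECKO EDL. The 10 myeloid markers summed to 263 to 348 CPM in WT soleus, 20.1 to 25.1 in WT EDL, 36.3 to 82.1 in Atf4 ECKO soleus and 13.1 to 15.1 in Atf4 ECKO EDL. The 8 pericyte and smooth muscle markers summed to 1969 to 2035 CPM in Atf4 ECKO EDL and to at most 1180 CPM elsewhere. That sum does not stand for the whole list. Against WT EDL, 2 of the 8 were called higher, 1 lower and 5 not, with a median log2 fold change of -0.02. Fibroblast and muscle fibre markers were lowest in WT EDL, at 50.3 to 58.9 and 58.5 to 64.9 CPM. Of the 10 markers of plasma and B cells, which are rich in these ER genes, Sdc1 gave nearly the whole sum of at most 23.3 CPM, and Jchain averaged at most 0.157 CPM in any group. All WT libraries held RNA from 4 Y-linked genes, between 92.1 and 118 CPM. Atf4 ECKO EDL held 59.3 to 66.4 CPM of Xist and at most 1.55 CPM of Y-linked RNA, so sex and genotype cannot be told apart there. Among the Atf4 ECKO soleus libraries, replicates 1 to 3 held Y-linked RNA at 64.6, 65.6 and 32.2 CPM beside Xist at 18.6, 18 and 43.8 CPM, and replicates 4 and 5 held 0.932 and 1.1 CPM beside 81.5 and 76.2 CPM. WT soleus held at most 0.274 CPM of Xist, so neither subset matches it. Sex and genotype thus cannot be fully told apart in soleus either, nor in the difference between the muscles' genotype effects. Below, an effect of genotype or of the loss of Atf4 means the difference of Atf4 ECKO from WT, in which sex and Cre may have a part. No member lies on X or Y. In bulk RNA, fewer cells of a type and less RNA per cell cannot be told apart. Each result on Atf4 ECKO soleus was also computed with each of these subsets alone.

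Per unit of transcript length, in the authors' TPM, the members spanned a wide range of levels. Sec61b, a small subunit of the translocon, averaged 275 TPM over the 4 groups, but 23.5% of its 31-base words also occur in another gene, Gm10320, and its level is uncertain. Pdia3, Hspa5 and P4hb followed with 194, 186 and 185 TPM. Their ranges of group means (164 to 235, 167 to 212 and 142 to 204 TPM) overlapped. Xbp1, Calr, Herpud1 and Ostc lay close together at 143, 142, 141 and 140 TPM. Of the sensors, Atf6b averaged 28.4 TPM, Atf6 6.72 TPM and Ern1 2.54 TPM. Derl3, which serves the degradation pathway in secretory cells, averaged 0.332 TPM. It had 22 counts summed over WT EDL, 13 over WT soleus, 6 over Atf4 ECKO EDL and 12 over Atf4 ECKO soleus.

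In WT endothelium the sensors Ern1 and Atf6 and 3 other members were higher in soleus than in EDL, and 16 members, many of them folding genes, were lower. Of the 31 members tested, 5 were called higher and 16 lower in WT soleus than in WT EDL. Of all genes, 32.4% were called in this comparison, 16.4% higher and 15.9% lower. The median log2 fold change of the members was -0.16, against -0.0033 over all genes. The 5 higher members were Ern1, Atf6, Dnajb9, Herpud1 and Hspa5. All 4 tested genes of the translocon and glycosylation and 4 of 5 disulfide isomerases and reductases were called lower.

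**Figure D1:**
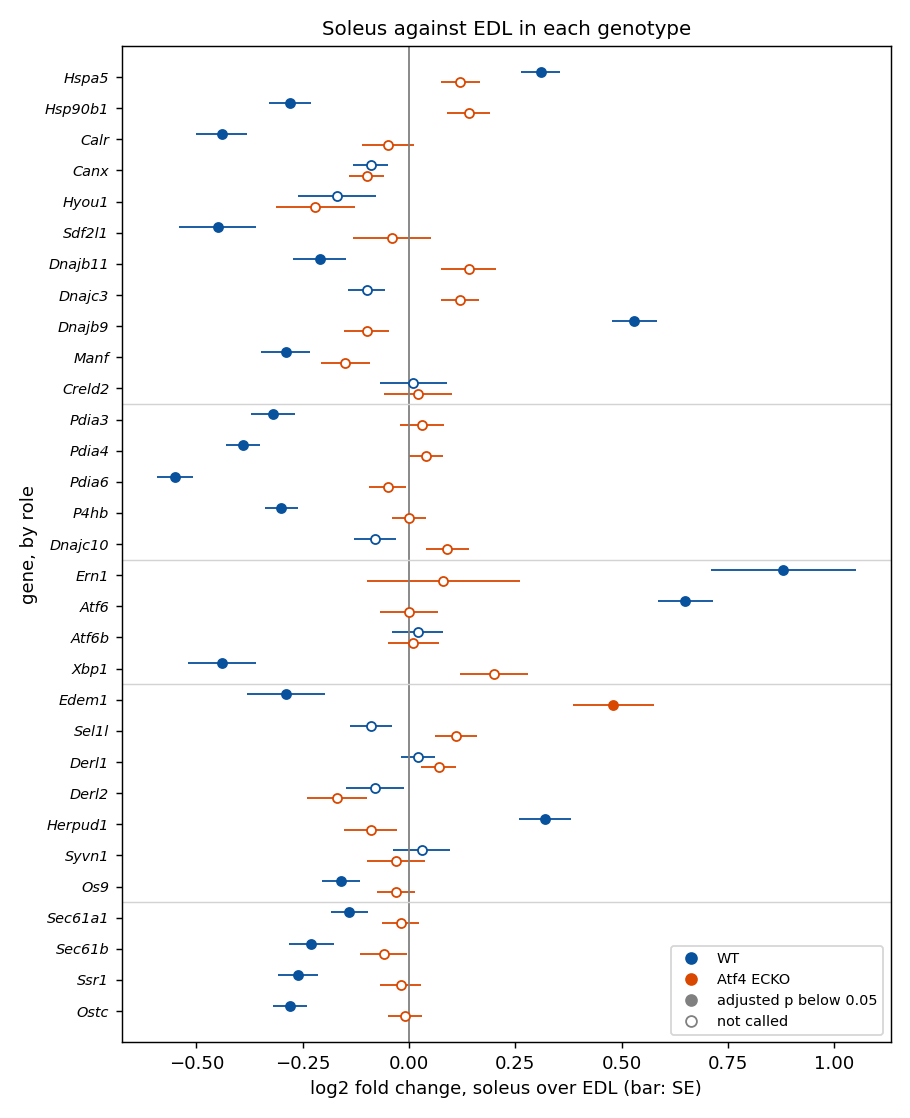
Log2 fold change of soleus over EDL for the 31 tested members, grouped by role, in WT (blue) and in Atf4 ECKO (orange), with SE as bars and filled points at an adjusted p below 0.05. In WT the points run from -0.55 for Pdia6 to 0.88 for Ern1, and in Atf4 ECKO from -0.22 for Hyou1 to 0.48 for Edem1.

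Among the sensors, Atf6 showed this most clearly. It read 37.7, 33.5, 33.1, 37.2 and 35.7 CPM in WT EDL and 54.3, 59.3, 53.2, 54.0 and 56.7 CPM in WT soleus. It read 28.8, 36.0, 33.6, 29.0 and 34.8 CPM in Atf4 ECKO EDL and 33.9, 33.8, 31.4, 33.4 and 29.5 CPM in Atf4 ECKO soleus. Every WT soleus library lay above every other library, and the other 3 groups overlapped between 28.8 and 37.7 CPM. The difference between WT muscles was 1.57-fold (log2 0.65, SE 0.064, adjusted p = 9.7e-09), and Atf4 ECKO soleus was at 0.583 of WT soleus (log2 -0.78, SE 0.065, adjusted p = 4.2e-10). In EDL, Atf4 ECKO against WT gave a log2 value of -0.13 (SE 0.067, adjusted p = 0.16). The effect in soleus differed from that in EDL by -0.65 (SE 0.094, adjusted p = 8.5e-06). With replicates 1 to 3 or replicates 4 and 5 alone, the soleus value was -0.74 or -0.82.

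Ern1, which encodes the sensor that splices Xbp1, was also highest in WT soleus, at a lower level. WT EDL read 9.42, 6.80, 4.93, 7.31 and 6.09 CPM and WT soleus 8.23, 12.7, 15.0, 12.9 and 14.1 CPM. Replicate 1 of WT soleus lay inside the range of WT EDL, and the other 4 lay above it. The difference was 1.84-fold (log2 0.88, SE 0.17, adjusted p = 0.00019). Atf4 ECKO soleus read 9.83, 9.34, 7.57, 10.8 and 7.45 CPM, below 4 of the 5 WT soleus libraries (log2 -0.50, SE 0.17, adjusted p = 0.022). That call was lost in 4 of the 10 fits that left out 1 soleus library (Atf4 ECKO replicate 3 or 5, WT replicate 3 or 5). With replicates 4 and 5 of Atf4 ECKO soleus alone the log2 value was also -0.50 and the adjusted p was 0.10. Atf4 ECKO EDL averaged 8.43 CPM ± 1.70, not called against WT EDL (log2 0.30, SE 0.18, adjusted p = 0.22). The 2 genotype effects differed by -0.80 (SE 0.24, adjusted p = 0.017), a call that was lost (adjusted p = 0.097) when changes of transcript length were allowed for.

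Atf6b, the close relative of Atf6, did not follow it. Its group means were 54.1, 54.7, 53.3 and 53.8 CPM in WT EDL, WT soleus, Atf4 ECKO EDL and Atf4 ECKO soleus, all 4 ranges overlapped, and no comparison called it. Eif2ak3, which encodes the third sensor and is on no list of members, lay between 16.7 and 23.0 CPM in all libraries.

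Xbp1, the transcription factor downstream of Ern1, went the other way from both sensors. It read 233, 231, 240, 237 and 236 CPM in WT EDL and 178, 178, 168, 168 and 174 CPM in WT soleus. It read 200, 206, 200, 205 and 201 CPM in Atf4 ECKO EDL and 274, 282, 234, 184 and 192 CPM in Atf4 ECKO soleus. The first 3 groups did not overlap, with WT EDL highest and WT soleus lowest, and Atf4 ECKO soleus spread from above the first to near the last. WT soleus was at 0.737 of WT EDL (log2 -0.44, SE 0.079, adjusted p = 8.2e-05). Atf4 ECKO EDL was at 0.86 of WT EDL (log2 -0.22, SE 0.079, adjusted p = 0.038), a call that was lost in 9 of the 10 fits that left out 1 EDL library, with log2 values from -0.23 to -0.21 and adjusted p values of up to 0.072. In a fit of the 2 EDL groups alone, with SDs of 3.59 and 2.76 CPM, the adjusted p was 2.4e-05.

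Atf4 ECKO soleus was higher than WT soleus in Xbp1 by 0.42 on the log2 scale (SE 0.079, adjusted p = 0.00013). The libraries that set this apart were replicates 1 to 3, those with Y-linked RNA. With them alone the value was 0.61 (adjusted p = 4.8e-11), and with replicates 4 and 5 alone it was 0.12 (adjusted p = 0.067). Replicates 1 to 3 also differed in their fibroblast markers, at 61.1, 62.1 and 218 CPM against 424 and 412 CPM in replicates 4 and 5. The part of these features in the Xbp1 level was not tested. The effect of genotype on Xbp1 in soleus differed from that in EDL by 0.64 (SE 0.11, adjusted p = 9.3e-05), and by 0.34 (adjusted p = 8e-05) with replicates 4 and 5 alone. The spliced form of the RNA, the active product of IRE1, was not measured, since none of the 4 annotated Xbp1 transcripts has an intron shorter than 300 bases, and the form without the short intron that IRE1 removes is not among them.

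**Figure D2:**
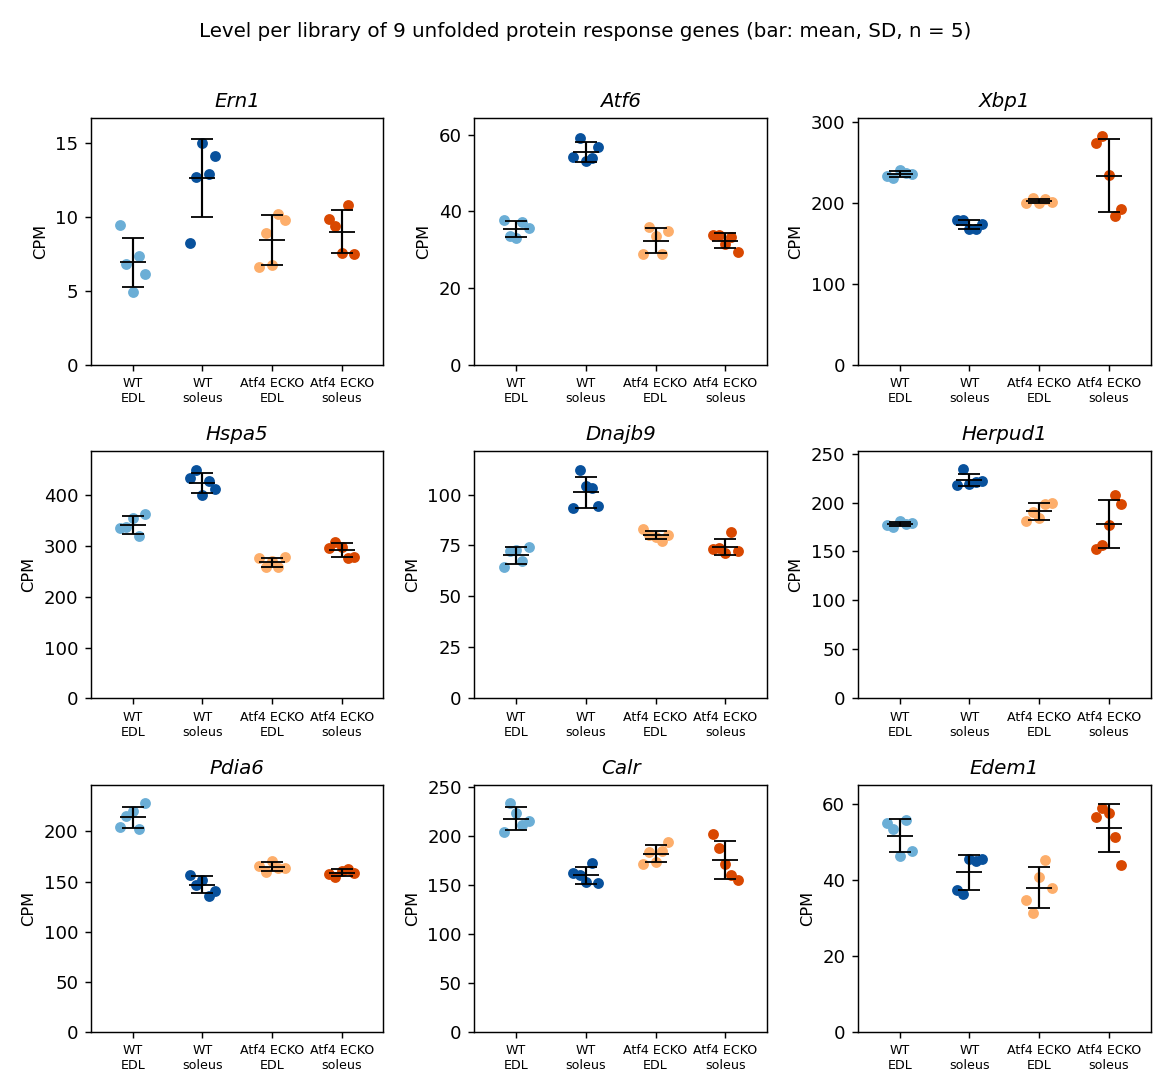
CPM of 9 members in each of the 20 libraries, by group, with mean and SD (n = 5) as bars and axes that start at 0. Atf6, Hspa5, Dnajb9 and Herpud1 have all 5 WT soleus libraries above every library of the other groups, and Xbp1 in Atf4 ECKO soleus is split between 3 libraries at 234 CPM or more and 2 at 192 CPM or less.

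Of the 11 chaperones and cochaperones, only Hspa5 and the cochaperone Dnajb9 were called higher in WT soleus than in WT EDL, and 5 were called lower. Hspa5 encodes BiP, the main Hsp70 of the ER lumen, which also holds the sensors inactive. It read 336, 337, 355, 320 and 364 CPM in WT EDL and 435, 450, 400, 428 and 412 CPM in WT soleus. It read 276, 258, 271, 258 and 278 CPM in Atf4 ECKO EDL and 297, 308, 298, 277 and 278 CPM in Atf4 ECKO soleus. The WT groups did not overlap each other or either Atf4 ECKO group. WT soleus was 1.24-fold above WT EDL (log2 0.31, SE 0.046, adjusted p = 6e-06). Without Atf4 the level was at 0.686 in soleus (log2 -0.54, SE 0.046, adjusted p = 4.9e-10) and at 0.783 in EDL (log2 -0.35, SE 0.046, adjusted p = 1.4e-06). The effects differed by -0.19 (SE 0.065, adjusted p = 0.034). The call for this difference was lost in 9 of the 20 fits that left out 1 library. It was also lost with replicates 1 to 3 of Atf4 ECKO soleus alone and with no filter on low counts.

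Dnajb9, a J-domain cochaperone that directs BiP, had the larger change between the WT muscles. It read 64.5, 72.3, 72.6, 67.4 and 74.2 CPM in WT EDL and 93.4, 112, 104, 103 and 94.3 CPM in WT soleus, with no overlap (log2 0.53, SE 0.053, adjusted p = 1.1e-08). Atf4 ECKO soleus read 73.3, 73.8, 71.4, 81.4 and 72.4 CPM, all below WT soleus (log2 -0.45, SE 0.053, adjusted p = 2.1e-07). Atf4 ECKO EDL read 83.1, 80.3, 79.2, 77.4 and 80.1 CPM, all above WT EDL (log2 0.19, SE 0.054, adjusted p = 0.01). The EDL call was lost with no filter on low counts. The difference of the effects was -0.63 (SE 0.075, adjusted p = 4.6e-07). Of its 31-base words 10.8% also occur in Gm6568, so its counts are uncertain.

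The other abundant lumenal chaperones were lower in WT soleus. Hsp90b1 (GRP94, the Hsp90 of the ER) read 254, 291, 286, 264 and 289 CPM in WT EDL and 255, 229, 215, 235 and 210 CPM in WT soleus. Only replicate 1 of WT soleus and replicate 1 of WT EDL touched (log2 -0.28, SE 0.049, adjusted p = 8.6e-05). Atf4 ECKO EDL read 202, 205, 208, 198 and 189 CPM, at 0.724 of WT EDL (log2 -0.47, SE 0.050, adjusted p = 5.2e-08), the lowest value of any member in that comparison. Atf4 ECKO soleus read 221, 218, 217, 225 and 220 CPM, inside the WT soleus range (log2 -0.05, SE 0.050, adjusted p = 0.44). The effects differed by 0.41 (SE 0.070, adjusted p = 7.9e-05). Hsp90b1 shares 12.3% of its 31-base words with 1810014B01Rik on the opposite strand.

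Calr encodes calreticulin, a lectin chaperone that binds glycoproteins together with calnexin. It read 204, 234, 224, 211 and 215 CPM in WT EDL and 162, 160, 153, 173 and 152 CPM in WT soleus, with no overlap (log2 -0.44, SE 0.060, adjusted p = 1.8e-06). Atf4 ECKO EDL read 172, 184, 174, 185 and 194 CPM, all below WT EDL (log2 -0.26, SE 0.060, adjusted p = 0.0018). Atf4 ECKO soleus read 202, 188, 172, 160 and 155 CPM, with replicates 1 and 2 above the WT soleus range. The fit gave 0.13 (SE 0.061, adjusted p = 0.096) for all 5, 0.24 (adjusted p = 0.0014) for replicates 1 to 3 and -0.02 (adjusted p = 0.84) for replicates 4 and 5. Canx, its membrane-bound partner calnexin, was not called in any comparison. Its group means were 303, 284, 295 and 275 CPM in the order WT EDL, WT soleus, Atf4 ECKO EDL, Atf4 ECKO soleus.

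Sdf2l1, which works with BiP cofactors, stood at 21.3 to 23.0 CPM in WT EDL and at 15.7 to 16.8 CPM in WT soleus, with no overlap (log2 -0.45, SE 0.090, adjusted p = 0.00027). In Atf4 ECKO soleus its replicates 1 to 3 read 21.4, 20.7 and 19.6 CPM and replicates 4 and 5 read 15.1 and 15.5 CPM, a split like that of Calr. Manf, a secreted ER-resident factor, and Dnajb11, a J-domain cochaperone, were also lower in WT soleus (log2 -0.29 and -0.21, adjusted p = 0.00029 and 0.011). Both were lower in Atf4 ECKO EDL than in WT EDL (log2 -0.16 and -0.37, adjusted p = 0.037 and 6.2e-05), though the call for Manf was lost without WT EDL replicate 3 or 5 or Atf4 ECKO EDL replicate 4 or 5, at log2 values from -0.16 to -0.11. Dnajc3, a J-domain inhibitor of PERK and helper of BiP, was lower in Atf4 ECKO EDL (log2 -0.19, adjusted p = 0.0017). Hyou1, a nucleotide exchange factor of BiP, and Creld2, an ER-stress-induced factor, were called in none of the 5 comparisons. Their group means ran from 25.6 to 32.1 CPM and from 48.2 to 53.6 CPM. Creld2 had a split like that of Sdf2l1 in Atf4 ECKO soleus, at 63.1, 54.7 and 56.7 CPM against 45.5 and 48.1 CPM. Against WT soleus it gave 0.28 (adjusted p = 0.0067) with replicates 1 to 3 alone and -0.05 (adjusted p = 0.74) with replicates 4 and 5.

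The disulfide isomerases and reductases form and rearrange disulfide bonds. In WT soleus, Pdia6, Pdia4, Pdia3 and P4hb were lower than in WT EDL, and Dnajc10, a reductase that works in degradation, was not called (log2 -0.08, SE 0.050, adjusted p = 0.21). Pdia6 gave the lowest value of all members. It read 204, 215, 220, 202 and 228 CPM in WT EDL and 157, 147, 152, 136 and 141 CPM in WT soleus, with no overlap (0.684 of WT EDL, log2 -0.55, SE 0.043, adjusted p = 1.5e-10). Atf4 ECKO EDL read 166, 160, 171, 164 and 164 CPM and Atf4 ECKO soleus 158, 155, 161, 163 and 159 CPM. Both Atf4 ECKO groups thus lay below all WT EDL libraries, and in soleus 4 of the 5 lay above all WT soleus libraries. The genotype effect was -0.38 in EDL (SE 0.044, adjusted p = 1.8e-07) and 0.12 in soleus (SE 0.044, adjusted p = 0.041). The small soleus call was lost in 7 of the 10 fits that left out 1 soleus library and with the replicate number as a block (adjusted p = 0.05). It was also lost with no filter on low counts, with transcript length allowed for and with either subset of Atf4 ECKO soleus alone. The difference of the effects was 0.50 (SE 0.062, adjusted p = 9.3e-07).

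Pdia4 followed the same pattern, with WT EDL at 118, 106, 110, 111 and 118 CPM and WT soleus at 85.9, 83.3, 84.5, 89.4 and 84.9 CPM. Atf4 ECKO read 94.0, 88.6, 94.1, 91.7 and 91.1 CPM in EDL and 95.7, 90.3, 97.8, 95.4 and 94.1 CPM in soleus. The 2 Atf4 ECKO groups overlapped each other and neither WT group overlapped the WT group of the other muscle or the Atf4 ECKO group of its own. Its genotype effect was -0.29 in EDL (SE 0.041, adjusted p = 3.3e-06) and 0.15 in soleus (SE 0.041, adjusted p = 0.0067), the soleus call being lost with no filter on low counts. For Pdia3 (ERp57, the partner of calreticulin) the fall was in EDL, from 411 to 459 CPM in WT to 311 to 334 CPM in Atf4 ECKO (log2 -0.42, SE 0.052, adjusted p = 4.9e-07). In soleus it averaged 347 CPM ± 20.8 in WT and 331 CPM ± 26.1 in Atf4 ECKO (adjusted p = 0.32). Its sign in soleus depended on the libraries, with a log2 value of -0.15 (adjusted p = 0.029) for replicates 1 to 3 of Atf4 ECKO alone and 0.05 (adjusted p = 0.63) for replicates 4 and 5. P4hb, which encodes protein disulfide isomerase itself, was higher in Atf4 ECKO soleus, at 368 to 410 CPM against 322 to 352 CPM in WT soleus (log2 0.20, SE 0.039, adjusted p = 0.00026). In EDL it averaged 392 and 418 CPM without and with Atf4 (log2 -0.09, adjusted p = 0.081).

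The degradation genes split between Herpud1 and Edem1. Herpud1, a membrane protein that gathers the degradation complex, carries the second form of the stress element and the C/EBP-ATF response element core, as shown above. It read 177, 175, 181, 178 and 179 CPM in WT EDL and 218, 234, 219, 221 and 222 CPM in WT soleus, with no overlap (1.25-fold, log2 0.32, SE 0.061, adjusted p = 0.00017). Atf4 ECKO soleus read 152, 157, 177, 208 and 198 CPM, all below WT soleus (log2 -0.32, SE 0.061, adjusted p = 0.0002). Here too replicates 1 to 3 stood apart from 4 and 5, as the lower ones. The value was -0.45 with the first alone and -0.14 (adjusted p = 0.044) with the second alone. Atf4 ECKO EDL averaged 191 CPM ± 8.47 (log2 0.10, SE 0.062, adjusted p = 0.24), and the effects differed by -0.42 (SE 0.087, adjusted p = 0.00076).

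Edem1, which helps to pull misfolded glycoproteins out of folding, read 55.0, 53.4, 46.3, 55.7 and 47.4 CPM in WT EDL and 37.3, 36.2, 45.5, 45.0 and 45.5 CPM in WT soleus. The groups did not overlap but came within 1 CPM of each other (log2 -0.29, SE 0.092, adjusted p = 0.015), and the call was lost without replicate 1 or 2 of WT soleus. In Atf4 ECKO it read 34.6, 31.3, 40.6, 45.1 and 37.9 CPM in EDL and 56.6, 58.9, 57.4, 51.1 and 43.8 CPM in soleus. It was thus lower without Atf4 in EDL (log2 -0.43, SE 0.094, adjusted p = 0.00092) and higher in soleus (log2 0.34, SE 0.093, adjusted p = 0.0054). With replicates 4 and 5 of Atf4 ECKO soleus alone the soleus value was 0.16 (adjusted p = 0.31). The soleus call also missed the threshold, at 0.27 (adjusted p = 0.22), when changes of transcript length were allowed for.

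Derl1, part of the channel through which proteins leave the ER, was lower without Atf4 in both muscles. It read 135, 135, 144, 134 and 143 CPM in WT EDL and 115, 120, 119, 108 and 118 CPM in Atf4 ECKO EDL (log2 -0.26, SE 0.040, adjusted p = 2e-05). In soleus it read 138, 144, 140, 141 and 137 CPM in WT and 125, 122, 119, 124 and 118 CPM in Atf4 ECKO (log2 -0.20, SE 0.040, adjusted p = 0.00024). Neither pair overlapped, the WT muscles overlapped, and the effects differed by 0.05 (SE 0.057, adjusted p = 0.58). The lectin Os9 was lower in WT soleus than in WT EDL (log2 -0.16, SE 0.045, adjusted p = 0.0072). The ubiquitin ligase Syvn1 and the channel gene Derl2 were called in no comparison, and Sel1l, the partner of Syvn1, was called in none of the 4 comparisons between groups.

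All 4 genes of entry and glycosylation were lower in WT soleus than in WT EDL. Ostc, a subunit of the oligosaccharyltransferase, stood at 112 to 118 CPM in WT EDL and 92.0 to 100 CPM in WT soleus (log2 -0.28, SE 0.039, adjusted p = 4.1e-06). Ssr1, of the translocon-associated complex, stood at 155 to 176 and 130 to 142 CPM (log2 -0.26, SE 0.047, adjusted p = 0.00011). Neither overlapped. For Sec61b the log2 value was -0.23 (adjusted p = 0.0016) and for Sec61a1, the channel itself, -0.14 (adjusted p = 0.015), the smallest called. The Sec61a1 call was lost without replicate 1 of WT soleus, with no filter on low counts and with transcript length allowed for. Without Atf4, Ostc, Ssr1 and Sec61b were lower in EDL (log2 -0.25, -0.25 and -0.34, adjusted p = 2.1e-05, 0.00026 and 2.2e-05), the call for Ssr1 being lost with transcript length allowed for. Of the 3 only Sec61b was also lower in soleus (log2 -0.18, SE 0.054, adjusted p = 0.014), where Ostc and Ssr1 stood at 0.02 and -0.01. That call was lost with transcript length allowed for and with replicates 1 to 3 of Atf4 ECKO soleus alone.

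**Figure D3:**
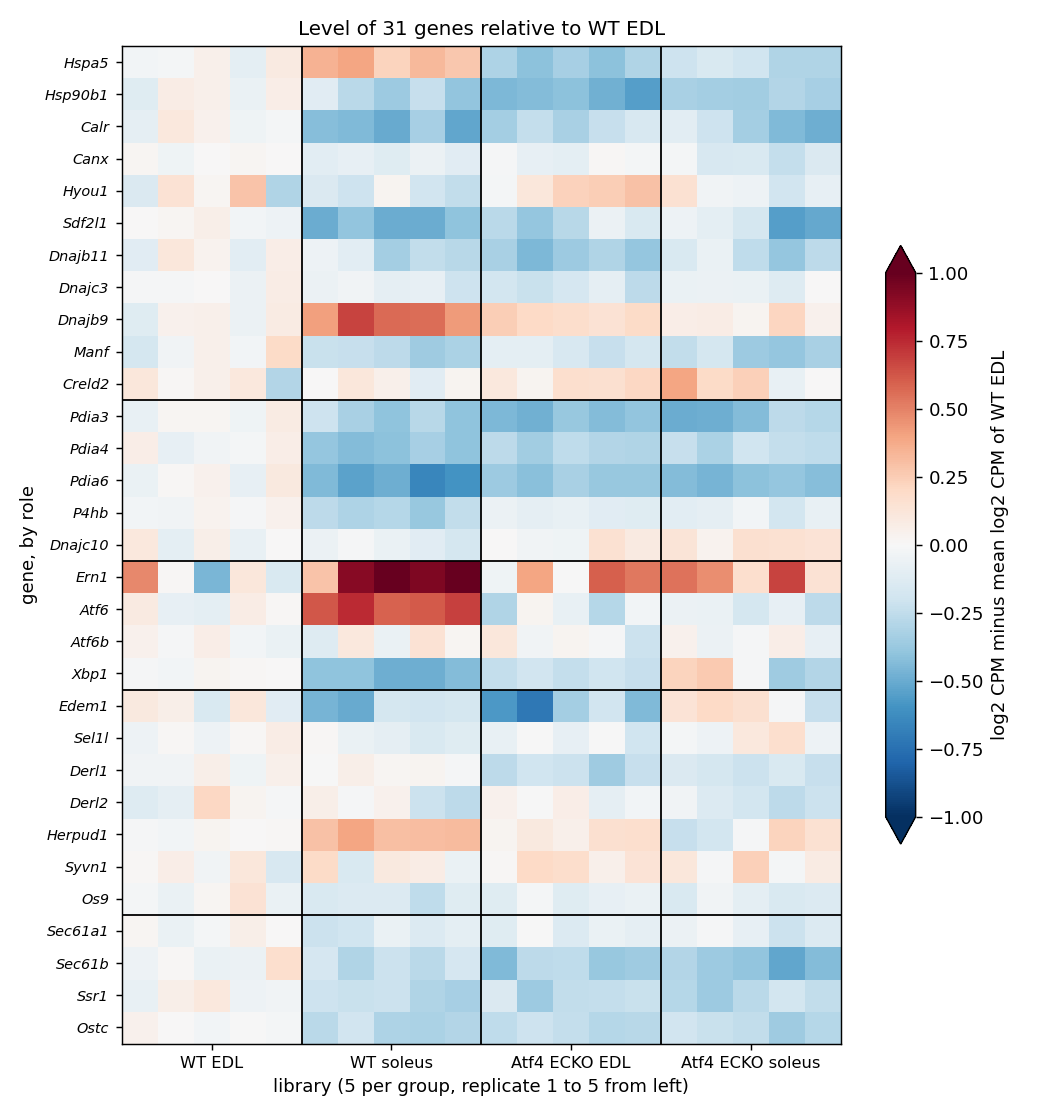
Log2 CPM of the 31 tested members in each of the 20 libraries, minus the mean of WT EDL, with genes in rows by role, libraries in columns by group, red above and blue below WT EDL, and colours that end at 1 and -1. WT soleus holds red rows for Hspa5, Dnajb9, Ern1, Atf6 and Herpud1 among mostly blue rows, and Xbp1, Calr and Sdf2l1 change within Atf4 ECKO soleus between libraries 1 to 3 and libraries 4 and 5.

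Without Atf4, few of these genes passed the test between the muscles. Between Atf4 ECKO soleus and Atf4 ECKO EDL, 1 of 31 members was called, against 18.4% of all genes (8.31% higher and 10.1% lower). That member was Edem1, higher in soleus (1.4-fold, log2 0.48, SE 0.095, adjusted p = 0.00056). The median log2 fold change of the members was 0.00. Ern1, Atf6, Dnajb9, Hspa5 and Herpud1, the 5 members higher in WT soleus, stood at 0.08, 0.00, -0.10, 0.12 and -0.09. The SE of these values was 0.18 for Ern1 and between 0.046 and 0.068 for the other 4. The count was sensitive to the settings, with between 0 and 5 members called higher and between 0 and 3 lower. With replicates 1 to 3 of Atf4 ECKO soleus alone, 5 members were called higher (Edem1, Xbp1, Hspa5, Dnajb11 and Dnajc3) and Herpud1 lower. With replicates 4 and 5 alone, none was higher and Calr, Canx and Sdf2l1 were lower, while Edem1 gave 0.30 (adjusted p = 0.07). Replicates 4 and 5 resembled Atf4 ECKO EDL in sex-linked RNA, with Xist and at most 1.1 CPM of Y-linked RNA. Replicates 1 to 3 held 32.2 to 65.6 CPM of Y-linked RNA, so sex is mixed into the comparison with all 5. The part of sex in it was not tested.

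The loss of Atf4 came with lower levels of folding genes in EDL and with changes in both directions in soleus. In EDL, 15 members were lower and 1 was higher, against 15.1% and 13.9% of all genes (29% called in all), and the median log2 fold change of the members was -0.16 against 0.004 over all genes. In soleus, 7 members were lower and 6 higher, against 17.4% and 14.6% of all genes (32% called in all), with a median of 0.02 against 0.0156. The 4 disulfide genes called in soleus (Dnajc10, P4hb, Pdia4 and Pdia6) were all higher, and the 3 called in EDL (Pdia3, Pdia4 and Pdia6) were all lower. With replicates 4 and 5 of Atf4 ECKO soleus alone, Edem1, Ern1, Pdia6 and Xbp1 were no longer called, and 3 members were higher and 6 lower. With replicates 1 to 3 alone, Pdia6 and Sec61b were no longer called, Calr, Creld2 and Sdf2l1 were called higher and Pdia3 lower, which gave 8 higher and 7 lower. These comparisons and the comparison of WT muscles share libraries, so their values are set side by side and not counted as separate evidence.

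The 8 tested members with the CCAAT and CCACG element did not move as 1 set between the WT muscles. Hspa5 was higher, Calr, Hsp90b1 and Pdia6 were lower, and Canx, Creld2, Dnajc3 and Syvn1 were not called, at log2 values of -0.09, 0.01, -0.10 and 0.03. Of all genes, 32.4% were called in that comparison. Against WT in EDL, 5 of the 8 were lower in Atf4 ECKO (Hspa5, Calr, Hsp90b1, Pdia6 and Dnajc3) and none was higher, beside 15 of 31 members and 15.1% of all genes lower. Against WT in soleus, Hspa5 was lower, Pdia6 was higher and the rest were not called, beside 32% of all genes called.

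Tested directly, the genotype effect differed between soleus and EDL for 19 of 31 members, against 22.6% of all genes. For 14 members the difference was positive (10.1% of all genes) and for 5 negative (12.5%), and the median over the members was 0.16 against 0.0092. With transcript length allowed for, Ern1, Pdia3, Sel1l and Ssr1 were no longer called and Sec61b was. With replicates 4 and 5 of Atf4 ECKO soleus alone, Sdf2l1 (0.15, adjusted p = 0.45) and Dnajb11 (0.26, adjusted p = 0.053) were not called, and with replicates 1 to 3 alone they gave 0.60 and 0.44. The call for Sel1l was lost in 12 and that for Hspa5 in 9 of the 20 fits that left out 1 library, and both were lost with no filter on low counts. The 5 negative ones were Ern1, Atf6, Dnajb9, Herpud1 and Hspa5, the same 5 that were higher in WT soleus. The difference tested equals the muscle difference in Atf4 ECKO minus that in WT. The 2 lists thus draw on the same WT libraries and are not separate evidence. Called in opposite directions in the 2 muscles, which share no library, were 5 members, 16.1% of those tested against 3.66% of all genes. Dnajb9 was lower in soleus and higher in EDL, and Edem1, Pdia4, Pdia6 and Xbp1 were higher in soleus and lower in EDL. Each of the 5 rests on a call that some fits lost. The EDL call of Xbp1 was lost in 9 and the soleus call of Pdia6 in 7 of 10 fits without 1 library. With replicates 4 and 5 of Atf4 ECKO soleus alone, Edem1, Pdia6 and Xbp1 were not called in soleus. With no filter on low counts, Dnajb9 in EDL and Pdia4 and Pdia6 in soleus were not called. With transcript length allowed for, Edem1 and Pdia6 were not called in soleus. Called lower in both were Derl1, Hspa5 and Sec61b, 9.68% against 6.24%. In no comparison were 6 members called (Atf6b, Canx, Creld2, Derl2, Hyou1 and Syvn1), 19.4% against 42.6%. The shares over all genes were not matched to the members for level of expression, and its part in the shares was not tested. The sizes were modest throughout. The highest group mean of a tested member was between 1.03 and 1.82 times its lowest, with a median of 1.25.

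**Figure D4:**
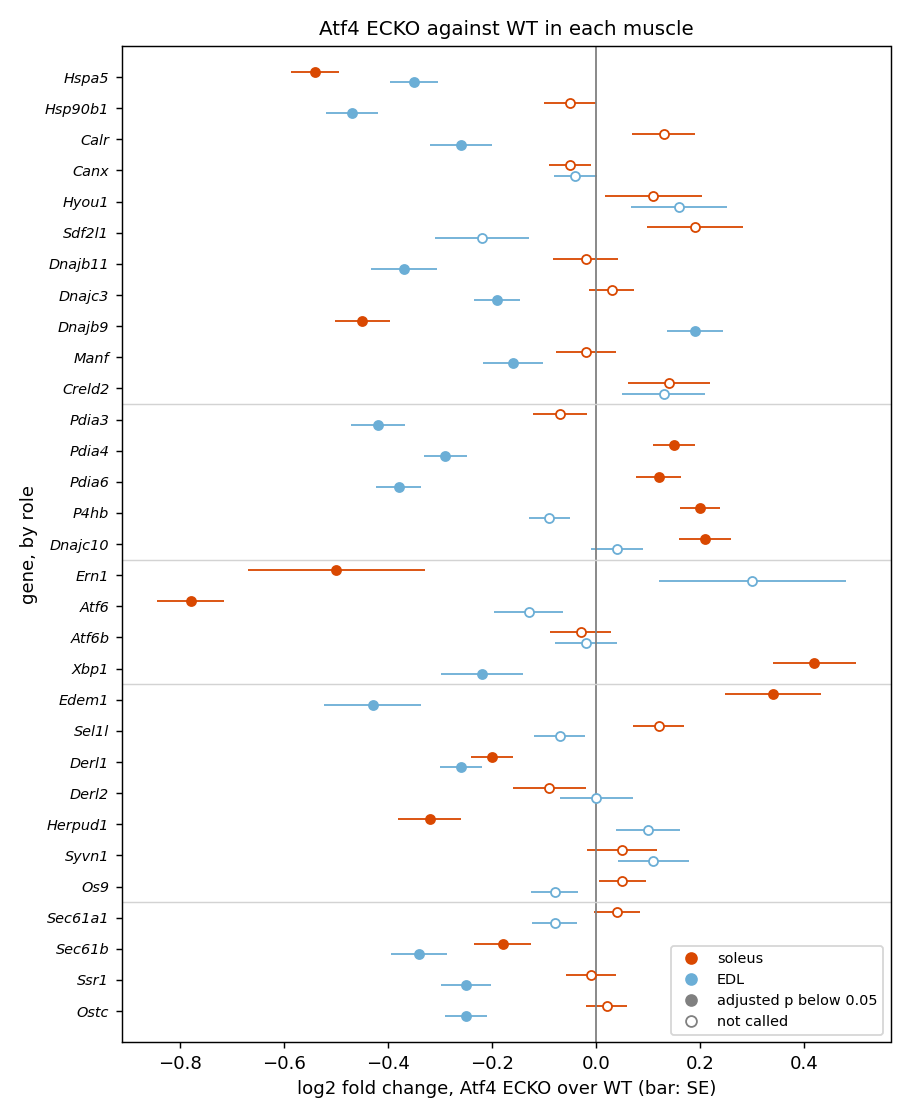
Log2 fold change of Atf4 ECKO over WT for the 31 tested members, grouped by role, in soleus (orange) and EDL (light blue), with SE as bars and filled points at an adjusted p below 0.05. In soleus the points run from -0.78 for Atf6 to 0.42 for Xbp1, and in EDL from -0.47 for Hsp90b1 to 0.30 for Ern1, which was not called.

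Further lists held other genes of the ER, to be read against the 16.4% of all genes called higher and the 15.9% called lower in WT soleus. Of 30 other tested folding and redox genes, 2 were higher and 14 lower in WT soleus than in WT EDL, with a median of -0.12. Pdia5, a disulfide isomerase, was the one of these with the smallest adjusted p, at 26.8 CPM ± 1.13 in WT soleus and 48.6 CPM in WT EDL (log2 -0.86, SE 0.074, adjusted p = 7e-10). Unlike most members it was as low in Atf4 ECKO soleus against Atf4 ECKO EDL (log2 -0.82, SE 0.077, adjusted p = 1.3e-08). Txndc5, a thioredoxin-domain isomerase, was lower in WT soleus (log2 -0.57, adjusted p = 2.5e-07) and higher in Atf4 ECKO soleus than in WT soleus (log2 0.71, adjusted p = 5.9e-09). Ero1l, which reoxidises the isomerases, was lower without Atf4 in soleus (log2 -0.59, adjusted p = 1.4e-07) and in EDL (log2 -0.30, adjusted p = 0.0017).

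Of 11 other oligosaccharyltransferase genes, none was higher and 7 were lower in WT soleus, among them Rpn1, Ddost and Rpn2 (log2 -0.30, -0.28 and -0.22). Of 21 other genes of the translocon, signal peptidase and signal recognition particle, 1 was higher and 6 were lower, led by Tram1, a translocon-associated protein (log2 -0.44, adjusted p = 4.2e-09). Tram1 was higher without Atf4 in soleus (log2 0.34) and lower in EDL (log2 -0.34), with a difference of 0.68 (SE 0.060, adjusted p = 2.9e-09). In degradation, 6 of 24 other genes were higher and 2 lower in WT soleus, beside 16.4% and 15.9% of all genes. The ubiquitin-conjugating enzyme Ube2g2 led these (log2 0.66, SE 0.060, adjusted p = 1.7e-09). It was lower without Atf4 in soleus (log2 -0.40, adjusted p = 6.2e-06) and higher in EDL (log2 0.41, adjusted p = 8.1e-06).

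Of 10 further sensors and transcription factors, Atf4 and Ddit3 were higher in WT soleus (log2 1.08 and 0.68, adjusted p = 1.6e-15 and 1.9e-07) and none was lower. Ddit3, the stress factor CHOP, read 21.5 to 23.5 CPM in WT EDL and 30.7 to 44.3 CPM in WT soleus. Without Atf4 it was lower in soleus (log2 -0.44, adjusted p = 9.3e-05) and averaged 25.5 CPM in EDL against 22.6 CPM in WT EDL.

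Cell makeup and sex-linked RNA moved with several of these results, and their part in them was not tested. Every WT library held Y-linked RNA, and every Atf4 ECKO library held Xist at 18 CPM or more. Sex and genotype thus cannot be told apart in EDL, nor fully in soleus. WT soleus, where Atf6, Ern1, Dnajb9, Hspa5 and Herpud1 were highest, also had the highest myeloid sum, at 263 CPM or more against 82.1 CPM or less elsewhere. Ptprc, the CD45 gene by which leukocytes were sorted out, averaged 2.53 CPM there, 0.134 CPM in WT EDL, 0.252 CPM in Atf4 ECKO soleus and 0.069 CPM in Atf4 ECKO EDL. Atf4 ECKO EDL, where 15 members were lower than in WT EDL, had 6 of 8 endothelial markers called lower as well. It also had the highest pericyte and smooth muscle sum, though only 2 of those 8 markers were called higher against WT EDL and 1 was lower.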

How the data were processed

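Per the labels' protocols, poly(A) RNA of sorted cells was made into stranded libraries and read from 1 end over 100 bases. The authors deposited, for each library, estimated counts and TPM (abundance per unit of transcript length) per transcript. The submitters' processing notes name kallisto and DESeq2 without versions, and GRCh38.p13, a human assembly. How strand was handled is not given in those notes. The transcript identifiers are of mouse, and GENCODE M21 on GRCm38 was used for names and positions. It matched 128643 of 129439 identifiers, and unmatched ones held at most 0.221% of a library's counts. Gene CT010467.1 took between 8.91% and 12.2%.

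Here estimated counts were summed per gene and rounded. Genes were tested with edgeR 4.0.16 in R 4.3.3 (quasi-likelihood test with TMM factors and the filterByExpr cut, on 1 model of the 4 group means over all 20 libraries), after the code had been tested on simulated data. The SE is the log2 value over the square root of F. The 5 comparisons were soleus against EDL in each genotype, Atf4 ECKO against WT in each muscle, and the difference of the latter. No libraries agreed within sampling noise (chi-square per gene from 2.64 to 27.7 over 40 pairs). The biological coefficient of variation was 13.4% in Atf4 ECKO soleus and between 6.86% and 10% in the other groups.

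The members and lists were chosen with earlier results of these data known. Named were all members, Atf4, and from each further list up to 4 called genes per comparison with the smallest adjusted p. Eif2ak3 lies outside this rule and was chosen after its values were seen, as were Ptprc and other markers named with their levels. RefSeq promoter windows on GRCm38.p6 were matched by symbol to 26 of 32 members. Counts of 6 members that share over 5% of their 31-base words with another gene (Hsp90b1, Dnajb9, Manf, Derl1, Sec61a1 and Sec61b), and of 9 whose exons overlap another gene, are uncertain.

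Alternatives replaced the test (DESeq2 1.42.0, or voom of limma 3.58.1), the factors (RLE) or the filter (none), or used an offset for transcript length, the compared groups alone, the replicate block, no CT010467.1, replicates 1 to 3 or 4 and 5 of Atf4 ECKO soleus alone, and leaving out each library. The planned share of spliced Xbp1 RNA was not computed.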

Additional observations from a re-analysis of the deposited data

Results flagged for a closer look

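Single libraries lay far from the other 4 of their group for 6 of 128 groups of 5 values, where chance gives about 6.4. WT EDL replicate 2 had 294 CPM of Canx against 304 CPM in the nearest other library, and WT EDL replicate 5 had 39.2 CPM of Creld2 against 48.4 CPM. WT soleus replicate 2 had 234 CPM of Herpud1 against 222 CPM, and WT soleus replicate 4 had 99.7 CPM of Os9 against 107 CPM. Atf4 ECKO soleus replicate 4 had 81.4 CPM of Dnajb9 against 73.8 CPM, and Atf4 ECKO soleus replicate 2 had 86.9 CPM of Dnajc10 against 93.0 CPM.

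The genotype effect differed between soleus and EDL for 19 members by edgeR's test of the difference itself. Values are the log2 effect in soleus minus that in EDL. The sensors and transcription factors gave -0.80 for Ern1, -0.65 for Atf6 and 0.64 for Xbp1. Among the chaperones the values were -0.63 for Dnajb9, -0.19 for Hspa5, 0.41 for Hsp90b1, 0.41 for Sdf2l1, 0.39 for Calr, 0.35 for Dnajb11 and 0.22 for Dnajc3. Those of Sdf2l1 and Dnajb11 were not called with replicates 4 and 5 of Atf4 ECKO soleus alone, at 0.15 and 0.26. That of Hspa5 was not called with replicates 1 to 3 alone, at -0.12, with no low-count filter, or in 9 of 20 fits without 1 library. The disulfide isomerases gave 0.50 for Pdia6, 0.44 for Pdia4, 0.35 for Pdia3 and 0.29 for P4hb. The degradation genes gave 0.78 for Edem1, -0.42 for Herpud1 and 0.19 for Sel1l, whose call was lost in 12 of 20 fits without 1 library, with no low-count filter, with the length offset and without CT010467.1. In entry and glycosylation the values were 0.27 for Ostc and 0.24 for Ssr1. With the length offset Ern1, Pdia3 and Ssr1 were not called either, at -0.69, 0.20 and 0.27 (adjusted p = 0.097, 0.091 and 0.087).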

How the results depend on the processing

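Of 3255 member values recomputed under the alternatives, 3128 stayed on their side of the threshold, 77 lost a call and 50 gained one. No member called in the fit reported changed sign. For members not called there, the sign was not compared. Most shifts in counts were in Atf4 ECKO soleus against Atf4 ECKO EDL, with 1 member higher and 0 lower in the fit reported. Higher were 3 with RLE factors (Dnajc3 and Hsp90b1 added), 4 with DESeq2 (Hspa5 as well), 2 with no low-count filter, 2 with the compared groups alone, 0 with the length offset (where 1, Derl2, was lower), 5 with replicates 1 to 3 of Atf4 ECKO soleus alone (1 lower, median log2 0.05) and 0 with replicates 4 and 5 alone (3 lower). Leaving out 1 library gave from 1 to 4 higher and from 0 to 1 lower there, with 4 higher without Atf4 ECKO soleus replicate 4, 3 without Atf4 ECKO EDL replicate 3, and 2 without Atf4 ECKO soleus replicate 5 or Atf4 ECKO EDL replicate 4. Against WT in soleus, where 6 were higher, replicates 4 and 5 alone gave 3 higher and a median of -0.03, replicates 1 to 3 alone gave 8 higher, and leaving out 1 library gave from 5 to 8, the most without Atf4 ECKO replicate 5. In EDL, 0 were higher with no low-count filter and 2 with the compared groups alone. The median difference of the effects was 0.10 with replicates 4 and 5 alone. Beyond the subsets of Atf4 ECKO soleus and the length offset, the cause of these shifts was not tested. Replicate numbers did not pair the libraries: over 30 same-numbered pairs the correlation of deviations ran from -0.066 to 0.1, with 0 above 0.1. With the replicate block, Pdia6 in soleus (log2 0.12, adjusted p = 0.05) and Sel1l in the difference lost their calls and no other member call changed. The alternatives for the spliced Xbp1 share were not run.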
